A study of Mus musculus with 46 samples.

Results

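Microglia, the resident macrophages of the brain, were compared between postnatal day 8 (PND8) and adulthood by the histone mark H3K27ac. Of the 46 samples in the study, 12 were H3K27ac libraries, and 4 of those entered the comparison: 2 from adult mice and 2 from PND8 cells sorted as Ki67-negative. All 4 came from wild-type male C57BL/6 mice, and the labels give no treatment, although the headers of the adult lists carry the word vehicle. The adult libraries came from mice of 60 days (replicate 1) and 65 days (replicate 2), and both PND8 libraries from mice of 8 days. Cells were stained for CD11b, CD45 and CD44 and isolated on ice in the presence of sodium butyrate, which blocks histone deacetylation, and flavopiridol, which blocks transcription. For H3K27ac, fixed cells were labelled with an anti-Ki67 antibody, which detects a protein of cycling cells, and all 4 libraries were labelled Ki67-negative. RNA came from other mice, the adults among them older. The 2 adult RNA libraries were from wild-type male mice of 90 days, and the 2 PND8 libraries from male mice with a red fluorescent Ki67 reporter, at 8 days, sorted as reporter-negative. Age, reporter genotype and the numeric code in the RNA headers therefore cannot be told apart for RNA. The labels call the RNA replicates independent, but do not say how many animals went into a library or whether the H3K27ac replicates were separate animals, so those p-values measure only the spread between these samples.

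H3K27ac is deposited by the acetyltransferases p300 and CBP on nucleosomes beside active promoters and enhancers, and is lost when histone deacetylases act unopposed. In microglia, enhancers carrying the mark are set up by the macrophage factor PU.1 with partners such as SALL1, MEF2 and SMAD proteins downstream of TGF-beta. Microglia of the first postnatal weeks still divide, clear dying cells and express growth and lipid genes, whereas adult microglia divide rarely.

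The authors called regions in each library on its own against input chromatin, and stitched neighbouring enriched windows. Each region carries a normalized tag count, its sequenced tags scaled to a library of 10000000 tags. The lists held 19572 regions in adult replicate 1, 24903 in adult replicate 2, 27644 in PND8 replicate 1 and 29333 in PND8 replicate 2, from 19600001 to 22888521 tags. Adult replicate 1 stood apart: 32.6% of its tags lay in regions, against 58.3% in adult replicate 2 and 47.5% and 45.5% at PND8. Overlapping regions of the 4 lists were merged into a union of 32945. Across regions called in all lists, log2 signal correlated at r = 0.961 between the PND8 libraries, at 0.906 between the adults and at 0.815 to 0.849 between ages. The microglial identity was checked on RNA: the summed level of 10 microglia markers was 9122 and 9232 CPM (counts scaled to library size) in the adults, and 8746 and 7112 at PND8.

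Promoter sequences of genes that carry the main contrasts are shown first, because the H3K27ac difference at these genes lies at the start site itself. Cdk1, the kinase that drives entry into mitosis, Mki67, which encodes Ki67, and Igf2bp3, an RNA-binding protein of fetal tissues, had a promoter region in both PND8 lists and in neither adult list. Apoe, the main lipid carrier protein of the brain, had a promoter region higher at PND8. Mlph, which links Rab27a vesicles to myosin Va, had one lower at PND8. Each run is the 250 bases upstream of the start site in RefSeq, build GRCm38.p6, 5′ to 3′ on the strand of the gene, and capitals mark matches to the motifs named after them.
Cdk1, chr10:69352913-69353162, minus strand: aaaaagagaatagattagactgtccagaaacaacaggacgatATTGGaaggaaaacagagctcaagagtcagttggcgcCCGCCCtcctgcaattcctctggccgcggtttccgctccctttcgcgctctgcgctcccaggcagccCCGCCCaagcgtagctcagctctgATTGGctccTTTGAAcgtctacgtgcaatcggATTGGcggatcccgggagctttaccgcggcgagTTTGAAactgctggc
Mki67, chr7:135716380-135716629, minus strand: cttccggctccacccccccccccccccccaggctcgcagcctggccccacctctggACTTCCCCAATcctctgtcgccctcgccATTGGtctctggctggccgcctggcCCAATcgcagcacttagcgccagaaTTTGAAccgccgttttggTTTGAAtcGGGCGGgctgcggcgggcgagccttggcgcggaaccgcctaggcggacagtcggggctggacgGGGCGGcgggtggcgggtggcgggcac
Igf2bp3, chr6:49214955-49215204, minus strand: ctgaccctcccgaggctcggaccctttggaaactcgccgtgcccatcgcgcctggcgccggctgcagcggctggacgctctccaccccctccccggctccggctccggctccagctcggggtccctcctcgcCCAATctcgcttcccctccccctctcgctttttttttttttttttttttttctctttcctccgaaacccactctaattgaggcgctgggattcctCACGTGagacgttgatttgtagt
Apoe, chr7:19699189-19699438, minus strand: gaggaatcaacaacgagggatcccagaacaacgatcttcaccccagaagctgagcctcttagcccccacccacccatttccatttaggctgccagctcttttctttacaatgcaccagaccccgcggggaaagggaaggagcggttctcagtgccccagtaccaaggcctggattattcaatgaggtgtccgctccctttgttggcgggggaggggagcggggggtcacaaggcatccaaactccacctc
Mlph, chr1:90914850-90915099, plus strand: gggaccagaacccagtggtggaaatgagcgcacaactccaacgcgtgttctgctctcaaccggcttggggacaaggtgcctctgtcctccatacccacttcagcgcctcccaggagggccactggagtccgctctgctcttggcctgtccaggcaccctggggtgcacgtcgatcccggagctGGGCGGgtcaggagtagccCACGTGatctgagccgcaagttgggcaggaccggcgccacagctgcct

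The motifs searched on both strands were the cell cycle homology region TTTGAA, the CCAAT box CCAAT, the E2F site GGCGGGAA, the GC box GGGCGG, the AP-1 site TGANTCA, the PU.1 core GGAAGT, the E-box CACGTG and the TATA box TATAAA. Cdk1 held TTTGAA at bases -71 to -66 and -15 to -10 counted from the start site, with the CCAAT box at -208, -80 and -48. Mki67 held TTTGAA at -116 to -111 and -98 to -93, with the CCAAT box at -188, -166 and -141. Its match to the PU.1 core at -194 to -189 adjoins the first of these boxes, so the capitals run on. The GC box lay at -171 and -104 in Cdk1 and at -90 and -27 in Mki67. Igf2bp3 held 1 CCAAT box and 1 E-box, Mlph 1 GC box and 1 E-box, and the Apoe window held none of the 8 motifs. Of 20999 genes, 15777 were matched to a promoter sequence. TTTGAA occurred in 13.8% of those, in 13.1% of the 375 under PND8-only regions, in 14.2% of the 365 under regions higher at PND8 and in 11.4% of the 176 under regions lower at PND8. TTTGAA and the CCAAT box occurred together in 5.04% of all promoters and in 6.93% of those under PND8-only regions. The GC box was found in 45.8% of all promoters, in 60.0% under PND8-only regions, in 64.7% under higher regions and in 51.1% under lower regions. The E2F site was found in 2.67% of all promoters and 4.8% under PND8-only regions. The PU.1 core was found in 21.2% of all promoters, 21.9% under PND8-only regions and 31.3% under lower regions. The CCAAT box was found in 36.1% and 40.3%, the AP-1 site in 6.12% and 4.53%, the E-box in 6.97% and 7.73% and the TATA box in 11.9% and 6.67% of all promoters and of those under PND8-only regions. The promoter windows differed in base composition, with a median GC content of 56.4% over all genes, 58.4% under PND8-only regions, 61.6% under higher and 58.2% under lower regions. Of all promoters, 7780 lay under no region, and 6617 lay under regions in all lists, with a median GC content of 61.2%. In those 6617, the GC box was found in 64.2%, the E2F site in 4.14% and the PU.1 core in 27.4%. The TATA box was found there in 5.11%, the CCAAT box in 36.8%, the AP-1 site in 3.43% and the E-box in 9.14%. TTTGAA was found there in 9.29%, and together with the CCAAT box in 3.58%. A match is a description of letters, and no binding was measured.

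Most of the landscape was shared. Of the 32945 union regions, 17288 (52.5%) were called in all 4 lists. A further 3257, or 9.89%, were called in both PND8 lists and neither adult list (PND8-only), and 335, or 1.02%, in both adult lists and neither PND8 list (adult-only). This is a count of calls with no test, and the adult lists were the shorter ones. Cutting each list to its 19572 strongest regions gave 1195 PND8-only and 1128 adult-only regions, whereas a threshold of 8-fold over input gave 4098 and 118. In the other 3 lists but not in adult replicate 1 there were 4137 regions. Without that library the counts were 3611 and 1662. Without adult replicate 2, PND8 replicate 1 or PND8 replicate 2 the counts were 7394 and 749, 6028 and 505, and 4684 and 641. Leaving out a library drops a condition from both definitions, so these counts cannot fall below those reported. One header code is shared by adult replicate 2 and PND8 replicate 2, and the labels do not explain it. Within that pair, 6474 regions were in the PND8 list only, 2165 in the adult list only and 22428 in both.

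**Figure D1:**
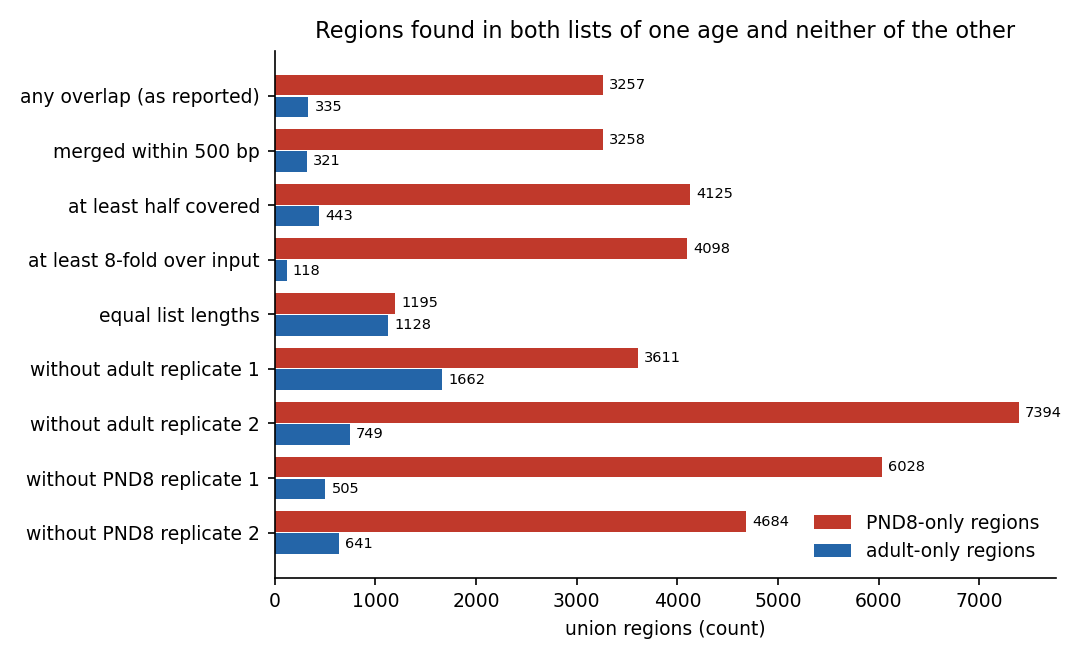
Number of union regions called in both lists of one age and in neither of the other, under the definition used here (top) and under other settings; red bars are PND8-only and blue bars adult-only regions. With any overlap counted, 3257 regions were PND8-only and 335 adult-only, and with lists of equal length the counts were 1195 and 1128.

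Regions found at one age were small, weak and mostly away from promoters. PND8-only regions had a median width of 1062 bases and a median normalized tag count of 27.75, against 2155 bases and 164.6 for regions in all lists. Of PND8-only regions, 509 (15.6%) lay within 1 kb of a start site, 46.2% elsewhere within a gene span and 38.2% between genes. Adult-only regions had a median width of 1034 bases and a signal of 39.1, and 12 of them (3.58%) lay within 1 kb of a start site. Of regions in all lists, 44.1% did so. The position classes use gene spans from start to end of the transcript in the count table, and exons and introns were not resolved.

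Overlap with other libraries of the study is given beside the share of all 32945 union regions, with no test. Repopulating microglia, used here and below, came by label from mice given PLX5622 and then left to recover. The cuprizone, repopulation, adult H3K4me3 and adult ATAC-seq libraries came from mice older than those of the adult H3K27ac libraries. The PND8 ATAC-seq library came from mice with the Ki67 reporter, unlike the H3K27ac libraries. Both H3K27ac lists of Ki67-positive PND8 cells held 62.8% of PND8-only and 17.6% of adult-only regions, against 74.4% of the union, and neither held 14.2% and 59.7%, against 13.9%. Both cuprizone Ki67-negative lists, from a demyelination model, held 28.1% of PND8-only and 55.2% of adult-only regions, against 67.7% of the union. The union includes the stronger regions called in all lists. The 12065 regions of other presence patterns had a median signal of 25.3, close to that of PND8-only regions. Of these, 45.8% were in both Ki67-positive PND8 lists, 31.8% in neither, and 38.5% in both cuprizone Ki67-negative lists. Of PND8-only regions, 67.8% lay in open chromatin by ATAC-seq in both the adult and the PND8 Ki67-positive list, 11.6% in the PND8 list alone and 5.65% in the adult list alone, against 79.5%, 3.43% and 5.54% of the union. Of adult-only regions, 55.5% were open in both, 2.39% at PND8 alone and 18.8% in the adult alone. The adult H3K4me3 list of replicate 1, a mark of promoters, held 25.6% of PND8-only and 15.5% of adult-only regions, against 42.8% of the union.

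The 8 PND8-only regions with the highest signal were at or near Cdk1, Igf1, Epor, Sdc4, Psmd7, Gas7, Sept9 and Igf2bp3. The region over the Cdk1 promoter (chr10:69350554-69353103) had 415.3 and 323.3 normalized tags at PND8 and was in neither adult list. At Igf1, an insulin-like growth factor that microglia secrete, the promoter region (chr10:87857428-87861250) had 259.7 and 245.1. Epor, the erythropoietin receptor, had 226.5 and 215.2 at chr9:21961984-21964274, and Sdc4, a cell surface proteoglycan, had 253.6 and 184.4 at chr2:164441116-164443549. These are 4 of the 5 promoter regions among the 8 strongest, and the other one covered the Igf2bp3 promoter (chr6:49213611-49215548, 233.2 and 153.1). The other 3 lay within gene spans: 30936 bases from the start of Psmd7, a proteasome subunit, and inside Gas7 and Sept9. Of the 8 regions, 7 stayed PND8-only with lists of equal length and 8 at a threshold of 8-fold over input. The Epor region did not stay so with equal lists. All 8 were in both Ki67-positive PND8 lists and in the adult ATAC list.

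The strongest adult-only regions were distal. One lay between genes, 36888 bases from the start of Hs1bp3 (chr12:8350321-8352382), with 379.7 and 776.0 normalized tags in the adults. The gene Ctsd, a lysosomal aspartic protease, had one 1973 bases from the start (chr7:142383491-142385854) with 218.0 and 745.6, and Nuak1, a kinase of the AMPK family, had 180.0 and 721.8 at chr10:84396840-84398884. Mef2a, a transcription factor of microglial enhancers, had 150.3 and 541.6 at chr7:67459084-67460224, 86226 bases upstream. Adult replicate 2 gave the higher value in each of these. The other 4 lay nearest Copz2, a coatomer subunit, Papss1, which makes the sulfate donor PAPS, Vrk1, a nuclear kinase, and Rhoh, a small GTPase. All 8 stayed adult-only with lists of equal length and 5 did at 8-fold over input. Of the 8, 6 were in neither Ki67-positive PND8 list, whereas 5 overlapped an ATAC peak of PND8 Ki67-positive cells.

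**Figure D2:**
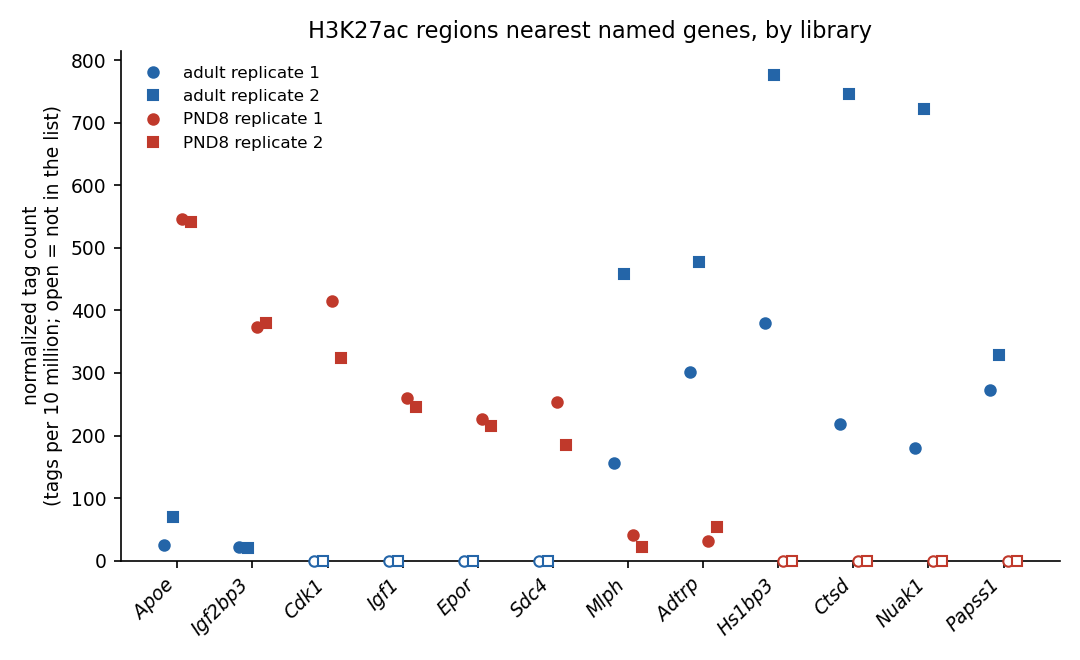
Normalized tag counts (tags per 10000000) of 12 regions nearest named genes in each of the 4 libraries; blue symbols are adult and red symbols PND8 libraries, circles replicate 1 and squares replicate 2, and open symbols on the axis mark regions absent from a list. PND8 libraries lie above adults from Apoe to Sdc4 and below them from Mlph to Papss1, and adult replicate 2 exceeds adult replicate 1 most at Hs1bp3, Ctsd and Nuak1.

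Signal was tested over the 17288 regions with a value in all 4 libraries, each library centred on its own median, which removed a shift of 0.26 log2 units towards PND8. With limma and a Benjamini-Hochberg adjusted p under 0.05, 792 regions (4.58%) were higher and 1591 (9.2%) lower at PND8. Regions higher at PND8 had a median log2 difference of 1.48 and those lower of -1.20. Within the pair that shares a header code, the medians of these regions were 1.30 and -1.13. Both libraries of the pair entered the test that chose the regions, so these medians are no independent check. Without centring, 61 were called higher and 36 lower. A value sums tags over the stretch each list called, and these stretches differed in length between libraries. With tags per kb of called stretch, 875 were called higher and 1713 lower. Among these were 488 of the 792 higher and 1198 of the 1591 lower regions. Leaving out a PND8 library left 103 to 125 higher and 502 to 624 lower.

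Position and strength separated the called regions. Of those higher at PND8, 430 (54.3%) lay within 1 kb of a start site and their median signal was 116. Of those lower, 223 (14.0%) did, with a median distance of 18.2 kb and a signal of 323. The difference moved with strength: with regions split into 5 bins of mean signal, its median ran from 0.29 in the weakest bin to -0.40 in the strongest, which held 688 of the lower calls. Quantile normalization, chosen after seeing this trend, gave medians of 0.01 to 0.05 in the 5 bins, and called 1032 higher and 1274 lower. Of the regions reported here, 656 higher and 1098 lower were called in the same direction after it. In adult replicate 1, polymerase II subunit Rpb2 was called at 40.4% of higher and 62.2% of lower regions, against 58.5% of all 17288. In PND8 Ki67-positive cells it was called at 91.0% and 76.1%, against 83.9%.

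**Figure D3:**
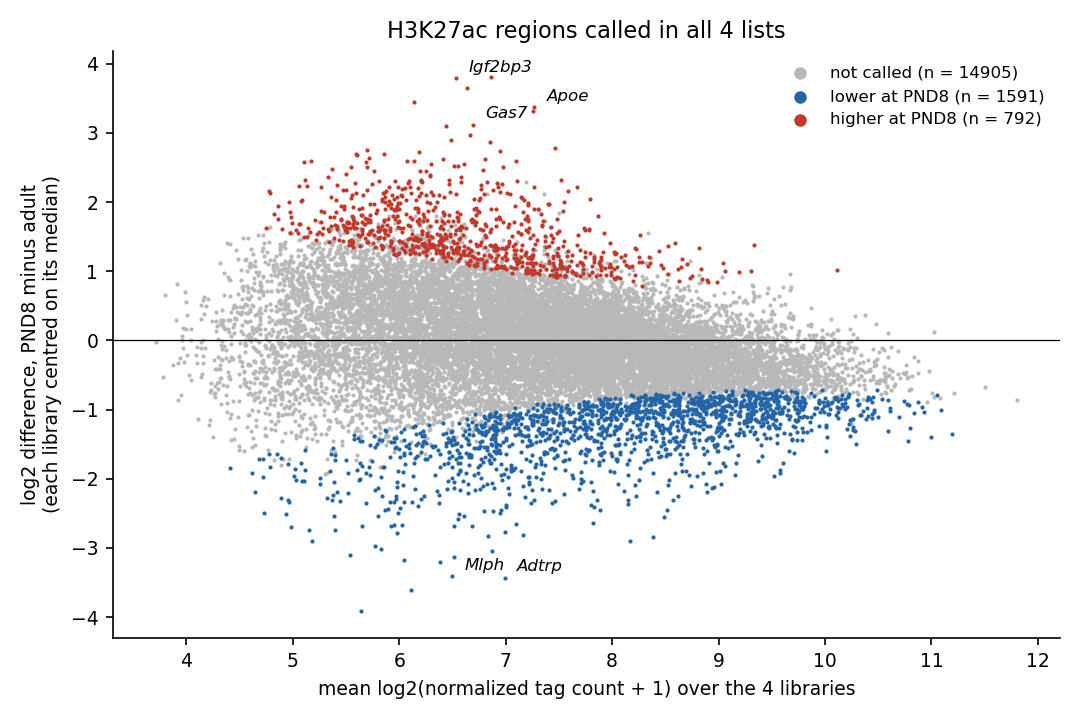
Log2 difference in centred H3K27ac signal (PND8 minus adult) against the mean log2(normalized tag count + 1) over the 4 libraries, for 17288 regions called in all lists; red points are the 792 higher and blue points the 1591 lower at PND8, and grey points passed no threshold. Lower calls concentrate at high mean signal, and the labelled regions of Igf2bp3, Apoe and Gas7 lie above and Adtrp and Mlph below.

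Among regions tested by limma, the lipid genes Apoe and Apoc1, which are neighbours, were among the 8 largest gains. The Apoe promoter region (chr7:19698368-19702493) had 25.8 and 70.4 normalized tags in the adults and 545.4 and 541.7 at PND8. These were summed over called stretches of 755 and 1218 bases in the adults and 3728 and 4042 at PND8. The groups did not overlap, and limma gave a log2 difference of 3.37 ± 0.30 (SE, n = 2 per group, adjusted p = 0.0021). The Apoc1 promoter region, which encodes another apolipoprotein of the cluster (chr7:19692699-19695376), had 12.2 and 27.8 against 330.1 and 194.0, a difference of 3.44 ± 0.39 (limma adjusted p = 0.0028). RNA rose at both genes. Apoe stood at 149 and 173 CPM in adults and 543 and 474 at PND8, a log2 fold change of 1.66 ± 0.12 (edgeR quasi-likelihood adjusted p = 1.6e-07). Apoc1 went from 0.116 and 0 CPM to 13.9 and 22.6.

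Gains clustered along Igf2bp3, Sept9 and Gas7. Within Igf2bp3, 3331 bases from the start (chr6:49207941-49211623), signal was 22.7 and 20.8 in the adults and 373.5 and 380.3 at PND8, a difference of 3.79 ± 0.38 (limma adjusted p = 0.0024). Within Sept9, a septin of the cytoskeleton (chr11:117331819-117335486), it was 12.7 and 58.2 against 479.1 and 472.2 (3.80 ± 0.41, limma adjusted p = 0.0026). At the Igf2bp3 region the lists called 500 and 500 bases in adults and 2770 and 3444 at PND8. At the Sept9 region they called 500 and 1281 bases against 3576 and 3667, so these differences include the length called. Gas7, a growth arrest gene that acts on actin, had 21.0 and 45.6 against 304.6 and 363.7 at chr11:67603373-67605810. Over whole genes, Gas7 had 18 regions of which 7 were PND8-only and 4 higher, and its summed signal was 76.9 and 260 in adults and 1968 and 2148 at PND8. Sept9 had 15 regions, 6 of them PND8-only and 3 higher. The RNA of all 3 rose: Gas7 from 3.24 and 2.44 CPM to 105 and 136, Igf2bp3 from 2.54 and 2.81 to 80.2 and 81.6, and Sept9 from 34.9 and 33.4 to 156 and 158. The remaining 3 of the 8 largest gains lay nearest Pus1, an RNA pseudouridine synthase, Auh, an enzyme of leucine breakdown, and Alx4, a homeobox factor. The Auh and Alx4 regions were between genes, 106110 bases downstream and 41530 bases upstream of the start.

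Losses at PND8 were led by distal regions. Nearest Cdk5rap3 (chr11:96884812-96887319), signal was 93.9 and 329.0 in adults and 14.3 and 12 at PND8, a difference of -3.91 ± 0.44 (limma adjusted p = 0.0028). Within Adtrp, a hydrolase of fatty acid esters (chr13:41803197-41805856), it was 301.5 and 477.3 against 31.6 and 54.3 (-3.43 ± 0.34, limma adjusted p = 0.0024). The Mlph region (chr1:90914746-90918976), the only promoter among the 8 largest losses, had 156.4 and 458.6 against 40.8 and 21.2 (-3.41 ± 0.41, limma adjusted p = 0.0031). The groups did not overlap at any of them, which held for all 1591 regions called lower, against 33.2% of all tested. Non-overlap therefore adds nothing to the calls. Adult replicate 2 was above adult replicate 1 at each of these regions. The other 5 lay nearest Bbs9, a BBSome subunit of cilia, Armc12, Gpr3, an orphan receptor, Chsy1, which makes chondroitin chains, and Abca9, a lipid transporter family member.

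RNA calls followed the class of region near a gene. Among 12230 genes tested by edgeR quasi-likelihood over all 10 RNA libraries (Benjamini-Hochberg adjusted p under 0.05), 3105 (25.4%) were higher and 2615 (21.4%) lower at PND8. The libraries outside the comparison were reporter-positive PND8 cells, and reporter-negative and reporter-positive repopulating cells after PLX5622, all from Ki67 reporter mice. Of the 2186 genes nearest at least 1 PND8-only region, 743 (34.0%) were higher and 430 (19.7%) lower. The shares differed by position, with no test of the difference: with the PND8-only region within 1 kb of a start site, 241 of 483 genes (49.9%) were higher and 43 (8.90%) lower, and with it elsewhere 31.5% were higher and 21.7% lower. Of 267 genes nearest an adult-only region, 16 (5.99%) were higher and 148 (55.4%) lower. With lists of equal length the shares were 35.7% higher and 17.5% lower near PND8-only regions, and 12.8% and 41.6% near adult-only ones.

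Regions that changed in strength showed the same order of shares. Of 695 genes nearest a region higher at PND8, 316 (45.5%) were higher in RNA and 58 (8.35%) lower. Of 949 nearest a lower region, 82 (8.64%) were higher and 483 (50.9%) lower, and with 3 or more lower regions 66.7% of 129 genes were lower. At lower promoter regions, 67.6% of 219 genes were lower in RNA. The 1729 tested genes with no region nearest had 26.2% higher and 13.9% lower. Over 8679 tested genes with signal in all lists, the log2 differences in summed H3K27ac and in RNA correlated at r = 0.331 (rho = 0.311), and without genes that had a PND8-only or adult-only region at r = 0.295 over 7002. Genes are not independent replicates, and the nearest start site is an assignment by distance alone.

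**Figure D4:**
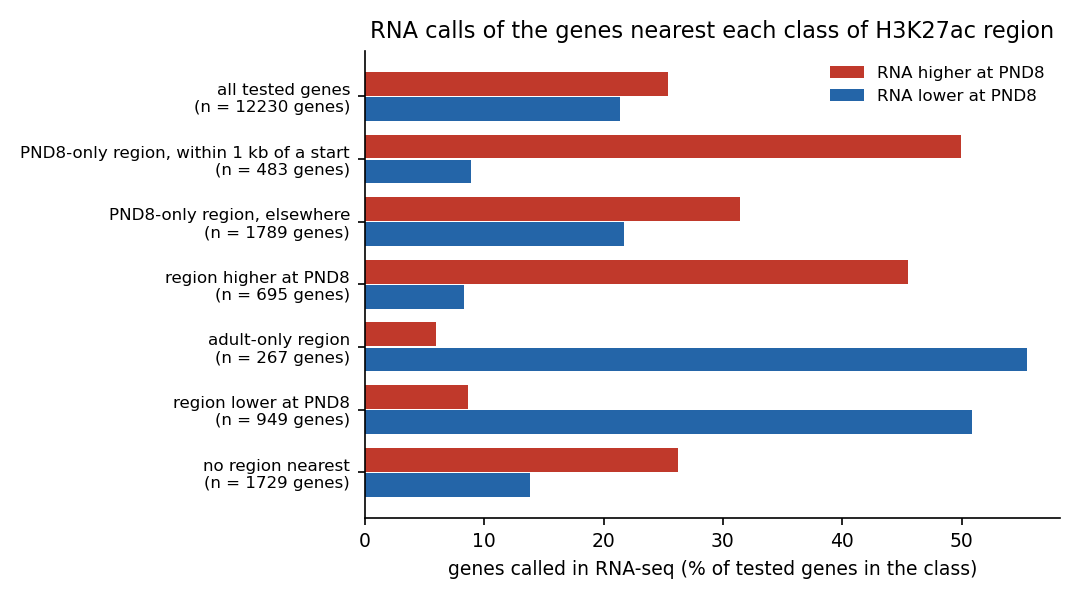
Share of tested genes called higher (red) or lower (blue) at PND8 in RNA-seq, in percent, for genes grouped by the class of H3K27ac region nearest them; n under each label is the number of genes. Genes with a PND8-only region within 1 kb of a start site reach 49.9% higher, genes with an adult-only region 55.4% lower, and all tested genes 25.4% and 21.4%.

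Promoters of cell cycle genes were often PND8-only regions, although the cells were labelled Ki67-negative. A PND8-only region within 1 kb of a start site belonged to 10 of 35 S phase genes (28.6%) and 11 of 39 G2/M genes (28.2%), against 509 of 20999 genes (2.42%). All genes of both lists were tested in RNA, and 483 of the 12230 genes tested in RNA had such a region. The 11 G2/M genes were Aurkb, Bub1, Ccnb1, Ccnb2, Cdk1, Dlgap5, Gtse1, Mki67, Plk1, Tpx2 and Ube2c, which encode mitotic kinases, cyclins and spindle factors. The 10 S phase genes were Cdc6, Chaf1b, Clspn, E2f8, Hells, Mcm2, Mcm6, Rrm2, Tyms and Uhrf1, which encode replication licensing, nucleotide and chromatin assembly factors. Their signal at PND8 ran from 12 to 415.3 normalized tags, with Mki67 at 117.3 and 131.5, Mcm2 at 109.7 and 131.0 and Uhrf1 at 119.4 and 132.4. Mcm2 and Uhrf1 are given here after their values were seen. No region was called at any of the 21 in either adult list.

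The 21 promoters were set beside all 509 PND8-only regions within 1 kb of a start site, as a description with no test. The adult ATAC list held 20 of the 21, against 91.6% of the 509, and both adult H3K4me3 lists held 21, against 90.0%. At least 1 adult Rpb2 list held 4, against 19.4%, and the Rpb2 list of PND8 Ki67-positive cells held 20, against 76.0%. Both H3K27ac lists of PND8 Ki67-positive cells held 21, against 88.6%. Both lists of Ki67-positive repopulating microglia held 19, against 61.3%, both Ki67-positive cuprizone lists 15, against 51.7%, and both Ki67-negative cuprizone lists 2, against 25.9%. All 21 stayed PND8-only when either adult list was left out, which the definition of the class guarantees. With lists of equal length 13 stayed PND8-only and 4 were in no list, and at 8-fold over input 12 stayed and 6 were in no list.

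RNA of the same gene lists rose almost throughout. All 35 S phase genes and 38 of 39 G2/M genes were higher at PND8 by edgeR quasi-likelihood, with none lower and median log2 fold changes of 3.29 and 4.12, against 0.03 over all tested genes. Mki67 was at 13.4 and 11 CPM in adults and 242 and 282 at PND8, a log2 fold change of 4.42 ± 0.19 (edgeR adjusted p = 3.1e-09). Its groups did not overlap, and the PND8 cells were reporter-negative by label. Cdk1 went from 3.70 and 4.15 CPM to 71.9 and 91.6, and Cdc6 from 0.925 and 0.855 to 25.9 and 26.7. Top2a, the topoisomerase of dividing cells, rose from 4.86 and 9.78 to 204 and 267, while its 1 region was called in the replicate 2 lists of both ages only. Pcna, the replication clamp, rose in RNA by 1.62 ± 0.17 log2 units while its H3K27ac was 252 and 275 in adults and 238 and 167 at PND8. How completely the Ki67 sorts removed cycling cells was not tested. In bulk samples, fewer cells of a type and less RNA or mark per cell cannot be told apart.

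Genes of neonatal and disease-associated activation were mostly higher in RNA at PND8. Of 27 tested, 20 were higher and none lower in RNA, with a median of 1.11 (all tested genes 25.4% higher and 21.4% lower). A PND8-only promoter region belonged to 7 of 27 (25.9%), against 2.42% of all genes and 483 of the 12230 genes tested in RNA. Over all their regions, 17 of 87 (19.5%) were PND8-only, at 11 genes, against 9.89% of all regions. Of the 35 tested for strength, 2 were higher (5.71%) and 9 lower (25.7%), against 4.58% and 9.2% of all tested. After quantile normalization 2 were higher and 7 lower (20%), against 5.96% and 7.37%. Summed per gene and centred by library, H3K27ac was above the adults in both PND8 libraries at 9 of 19 genes and below them at 8. Over all genes with signal in all 4 lists, 3357 of 9443 were above and 2421 below. Igf1 had 5 regions in all, 4 of them PND8-only, and RNA at 3.35 and 2.93 CPM in adults and 145 and 161 at PND8 (log2 fold change 5.60 ± 0.18, edgeR adjusted p = 2.4e-10). Gpnmb, a lysosomal glycoprotein, had 2 PND8-only regions with a summed 74.5 and 28.9 normalized tags, and RNA at 0.463 and 0.855 against 77.3 and 112 CPM. Spp1, which encodes osteopontin, had 1 region of 24.3 in adult replicate 2 and of 61.7 and 52.0 at PND8. Its RNA rose from 6.48 and 5.99 to 238 and 280 CPM. Lpl, the lipoprotein lipase, had a summed signal of 17.9 and 27.8 in adults and 463 and 502 at PND8, and rose in RNA by 3.18 ± 0.22.

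At Itgax the calls had opposite signs in the 2 measures. Itgax encodes the integrin CD11c, and its promoter region (chr7:128128311-128129965) had 80.8 and 151.4 normalized tags in adults and 22.4 and 54.7 at PND8, a log2 difference of -1.89 ± 0.46 (limma adjusted p = 0.025). Its RNA rose from 28.6 and 25.7 CPM to 138 and 210, by 2.69 ± 0.17 (edgeR adjusted p = 5.4e-08). Ccl4, a chemokine, had both of its regions lower, and RNA at 23.5 and 28.8 against 50.1 and 28.7 CPM, with overlapping groups (edgeR adjusted p = 0.095). Clec7a, the beta-glucan receptor, had RNA of 33.9 and 28.0 against 39.9 and 23.5 CPM, with overlapping groups.

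Among homeostatic microglial genes, 24 of 97 tested regions were lower (24.7%, against 9.2% of all tested) and 1 higher. After quantile normalization 13 were lower (13.4%, against 7.37%) and 4 higher. In RNA, 2 of the 22 genes were higher and 10 lower (all genes 25.4% and 21.4%), with a median of -0.23. P2ry12, the ADP receptor of surveying microglia, had a promoter region (chr3:59258888-59265672) of 2533.1 and 3117.7 normalized tags in adults and 2017.9 and 1403.8 at PND8 (-1.0 ± 0.27, limma adjusted p = 0.037). That call was lost with quantile normalization, and its RNA was 967 and 963 against 988 and 751 CPM (edgeR adjusted p = 0.31). Gpr34, a lysophospholipid receptor, had 6 of 16 regions lower and fell in RNA by 0.38 ± 0.09 log2 units. Tmem119, a surface marker, had a summed signal of 236 and 1643 in adults and 763 and 952 at PND8, so the adults spanned the PND8 values, and its RNA fell by 0.60 ± 0.11. Upk1b, a uroplakin, fell in RNA from 154 and 146 CPM to 2.35 and 2.11 while none of its 4 regions was called higher or lower.

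**Figure D5:**
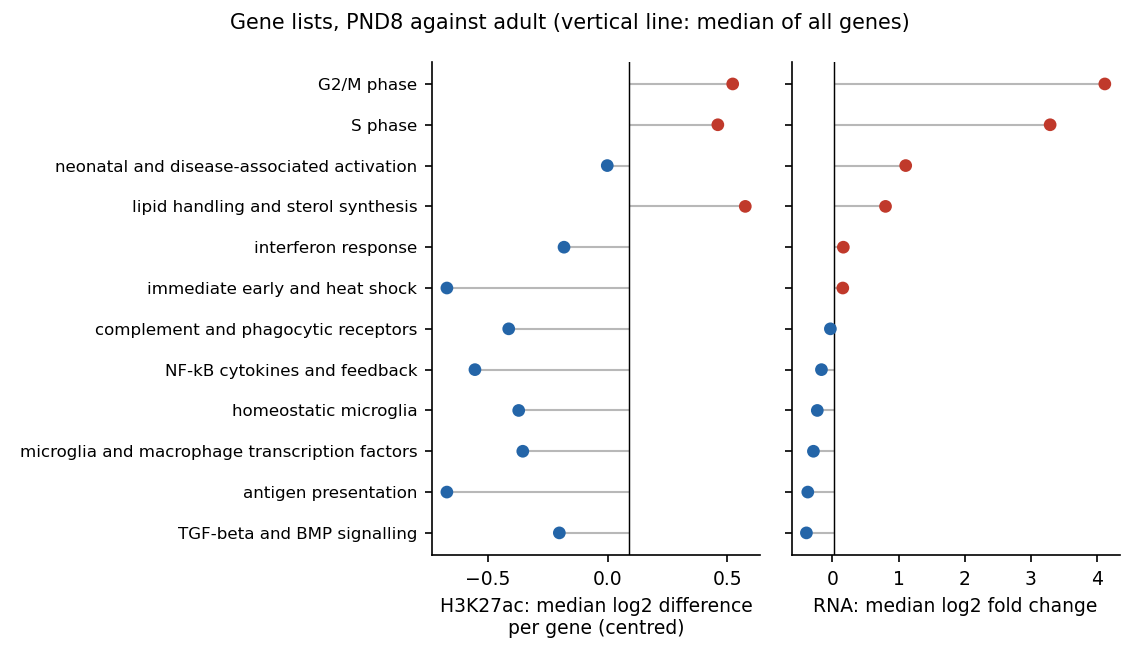
Median log2 difference between PND8 and adult for 12 gene lists, for H3K27ac summed per gene and centred (left) and for RNA (right); vertical lines are the medians of all genes, and colours show the side of that line. S phase, G2/M and lipid lists lie right of the line in both panels, while neonatal and disease-associated activation does so for RNA only.

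Among transcription factors of microglial identity, some Maf regions were higher at PND8 and some Mef2c regions lower. Over 24 factors, 5 of 155 tested regions were higher and 27 lower (17.4%), against 4.58% and 9.2% of all tested. After quantile normalization 9 were higher and 18 lower (11.6%), against 5.96% and 7.37%. In RNA, 1 factor was higher and 11 lower (all tested genes 25.4% and 21.4%). Maf, a basic leucine zipper factor, had 39 regions, 9 PND8-only and 5 higher, and a summed 802 and 2653 normalized tags in adults and 3397 and 4201 at PND8. Its RNA of 618 and 592 against 762 and 644 CPM did not pass (edgeR adjusted p = 0.073). Mef2c had 6 of 23 regions lower, the strongest within the gene (chr13:83570797-83576167), at 1480.2 and 1901.3 against 923.5 and 749.5 (-1.28 ± 0.24, limma adjusted p = 0.012), and RNA of 609 and 630 against 653 and 570 CPM. Of those 6 calls, 3 were lost with quantile normalization. Zeb2, a zinc finger repressor, had 7 of 28 regions lower, with RNA of 432 and 422 against 452 and 320 CPM. Sall1, the zinc finger factor that sets microglial identity, had 34 regions of which 3 were lower, and 2 of those calls were lost with quantile normalization. Tfec, of the MiT family, had 2 of 4 regions PND8-only and rose in RNA by 3.83 ± 0.36.

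Lipid genes were mostly higher in RNA. For the other lists, the shares of all tested regions are 4.58% higher and 9.2% lower, and 5.96% and 7.37% after quantile normalization. For RNA, the shares of all tested genes are 25.4% higher and 21.4% lower. Of 24 lipid handling and sterol genes, 15 were higher and 2 lower in RNA with a median of 0.80, and the H3K27ac median per gene was 0.58 against 0.09 over all genes. Their tested regions were 5 higher and 9 lower of 53, or 4 and 5 after quantile normalization. Abcg1, a cholesterol exporter, had 3 of 8 regions lower and RNA at 345 and 327 against 288 and 345 CPM. Of 76 tested regions of immediate early and heat shock genes, none was higher and 18 (23.7%) were lower by limma. After quantile normalization 1 was higher and 10 (13.2%) lower. In RNA, the list had 4 of 22 genes higher and 5 lower. Egr1 in that list was at 581 CPM in PND8 replicate 1 and 55.2 in replicate 2, against 65.8 and 66.6 in adults. NF-kB cytokine genes had 1 higher and 18 lower (31.6%) of 57 regions, with 15 lower (26.3%) after quantile normalization. In RNA, 5 of their 20 tested genes were higher and 6 lower. Il1a, which encodes interleukin 1 alpha, had 3 of 4 regions lower and RNA of 143 and 115 against 74.7 and 82.3 CPM.

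Few regions of antigen presentation genes could be tested, and more of TGF-beta genes. Of 17 antigen presentation genes, 1 was higher and 9 lower in RNA, and 3 of 15 tested regions were lower (2 after quantile normalization). Lower regions lay nearest H2-K1 and Cd74, among others. The H2-K1 region (chr17:33978058-33982141) had 396.3 and 503.2 normalized tags in adults and 246.0 and 249.6 at PND8 (-1.11 ± 0.25, limma adjusted p = 0.020), and its RNA was 197 and 195 against 168 and 222 CPM. Among 21 tested TGF-beta and BMP genes, 2 were higher and 11 lower in RNA. None of their 88 tested regions was higher and 23 (26.1%) were lower by limma, or 1 and 14 (15.9%) after quantile normalization. Ski, a corepressor of SMAD proteins, had 6 of 10 regions lower and fell in RNA by 0.51 ± 0.09 log2 units. Complement and phagocytic receptor genes had 2 higher and 13 lower of 56 regions (4 and 8 after quantile normalization). In RNA, 6 of 24 were higher and 7 lower, near the shares of all tested genes. Gas6, a ligand of the clearance receptors AXL and MERTK, had higher signal at PND8, with a summed 183 and 503 normalized tags in adults, 822 and 830 at PND8 and RNA higher by 1.15 ± 0.09. Interferon genes had 2 of 14 tested regions lower (14.3%). In RNA, 8 of 23 were higher and 3 lower, against 25.4% and 21.4% of all tested genes. Without centring, the H3K27ac medians of the interferon and TGF-beta lists turned positive, at 0.08 and 0.06, against 0.35 over all genes. That of neonatal and disease-associated activation did so too, from -0.001 to 0.26. Leaving out the centring moves every list by the same shift, which rests on the low median of adult replicate 1.

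Markers of some other cells differed between the ages. Over all tested genes, 25.4% were higher and 21.4% lower in RNA. Over all regions, 9.89% were PND8-only, and of those tested for strength 4.58% were higher and 9.2% lower. Of 9 tested markers of border macrophages, which line meninges and vessels, 8 were higher at PND8. Their summed RNA was 151 and 171 CPM in adults and 1135 and 929 at PND8, mostly Mrc1, at 49.7 and 52.7 against 732 and 520. Those markers had 43 regions, of which 12 were PND8-only, and 3 of 9 tested were higher. Erythroid markers summed to 0.81 and 7.94 against 78.8 and 31.6 CPM, with 5 of 6 tested higher. Monocyte and neutrophil markers summed to 251 and 75.4 in adults and 9.90 and 7.71 at PND8, with 7 of 8 tested lower. Astrocyte markers summed to 241 and 249 against 109 and 433, so the PND8 libraries spanned the adults, with 4 of 8 tested higher, none lower by edgeR, and 5 of their 10 tested regions lower. Oligodendrocyte markers summed to 213 and 212 against 162 and 179, with 2 of 5 tested lower. Endothelial markers lay between 87.6 and 90.9 in all 4 libraries, neuronal ones between 5.87 and 13, and lymphocyte ones between 0.28 and 0.69, with 5 of 9 at 0. The part of any of these cells in the PND8-only regions and in the RNA calls was not tested.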

How the data were processed

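H3K27ac regions were called by the authors with HOMER, per the file headers, in each library alone against its input, at 4-fold or more over input. The deposited signal of a region is a normalized tag count (tags per 10000000). The deposited ratio over input and the deposited peak score were used only for the stricter threshold and to rank regions for lists of equal length. In these lists the last columns were out of order against the header and were read by their values. The submitters' processing notes name STAR 2.7.0f, Bowtie2 2.3.4.1, HOMER 4.11 and DESeq2, with build mm10 (GRCm38). The deposited counts per gene were made with HOMER over exons with at most 3 tags per position, per the file headers, and the strand setting is not given in the sources used here. RNA libraries held 8063370 to 10287876 counts.

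Regions overlapping by any base were merged, signal was summed per library, and each region was assigned to the nearest of 20999 start sites. Signal was tested with limma 3.58.1 (trend) on log2(value + 1), centred by library, and counts with edgeR 4.0.16 (TMM, filterByExpr) in R 4.3.3. A fold difference is on the log2(value + 1) scale. A region absent from a list has no value below the caller's threshold, so presence was counted and not tested. On simulated data, 200 of 200 changed regions were recovered over 17288 regions, with 2 other calls, and 187 of 200 genes over 11956, with 5 others. In the real libraries the called regions had median log2 differences of 1.48 (higher) and -1.20 (lower). Recovery and false calls at the difference sizes and replicate spread of the real libraries were not tested. Replicate numbers were checked for pairing: the replicate differences of the ages correlated at 0.25 for H3K27ac and 0.01 for RNA, and nothing in the labels ties the numbers to animals. Named genes were a panel of 16, the 8 regions per direction with the largest called difference, the 8 strongest per direction found at one age, the 8 genes per direction with the most such signal and an RNA change of 1 log2 unit, and from each list the extremes of H3K27ac difference. The members, the gene lists and the named genes were chosen with earlier results of these data known. Sequences of H3K27ac regions were not used here.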

Additional observations from a re-analysis of the deposited data

How the results depend on the processing

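The H3K27ac counts (792 higher, 1591 lower) depended on scaling and on single libraries. They were 61 and 36 without centring, 465 and 736 in regions above the median mean signal, and 1938 and 3370 with a replicate block. Chosen after seeing the data, a fit to all 12 H3K27ac libraries gave 2014 and 2743, and adding a header code term gave 2012 and 2955. Leaving out 1 library at a time gave 103 to 3311 higher and 502 to 3799 lower, highest without adult replicate 2 and lowest without PND8 replicate 2, where a lone library is assumed to vary like the other group. PND8-only regions (3257) numbered 1195 with equal list lengths, 6474 within the pair sharing a header code, and 3611 to 7394 with 1 library left out. Adult-only regions (335) numbered 118 at 8-fold over input, 1128 with equal list lengths, 2165 within the pair and 505 to 1662 with 1 library left out. Genes higher in RNA near PND8-only regions (743) numbered 347 with equal list lengths and 789 to 1184 with 1 library left out. Genes lower near adult-only regions (148) numbered 352 with equal list lengths, 49 at 8-fold and 190 to 476 with 1 library left out. With fewer lists to satisfy, the presence counts within the pair or with 1 library left out cannot fall, nor can the gene counts near those regions. RNA counts stayed within 1.5 times under every alternative run, at 3327 higher and 2881 lower with a replicate block and 2629 and 2316 with DESeq2 1.42.0. The labels tie no replicate number to an animal, so the block shares only a number. Sign changes were not counted in full over the 65 named regions. At 4 Sall1 regions that passed no threshold as reported, the sign followed which adult library was left out. Without adult replicate 1 and without adult replicate 2, the difference was -2.63 and 0.77 in the region starting at 89035707, -0.64 and 0.62 at 89054215, -0.99 and 1.16 at 89181162, and -0.77 and 1.43 at 89285331. Of 72 named genes, P2ry13, Slbp, Ccl2 and Tap1 lost their RNA call under at least 1 alternative. The cause of these shifts was not tested. Below the caller's threshold no H3K27ac level was measured, which limits every statement on presence.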
